A study of Mus musculus with 3 samples.

Results

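The genes described here are the Wnt ligands, their receptors, their secreted antagonists and the core intracellular effectors of the pathway, measured in mouse brain cell cultures after 3 treatments. They were chosen by gene name from the array annotation: every probe, other than control probes, named for a Wnt, frizzled (Fzd), secreted frizzled-related (Sfrp) or dickkopf (Dkk) gene, or for Lrp5, Lrp6, Ctnnb1, Gsk3a, Gsk3b, Apc, Axin1, Axin2, Lef1, Tcf7, Tcf7l1, Tcf7l2, Nkd1, Myc, Porcn or Wif1. The rule found 53 of 22340 genes, which were read by 70 of 55681 probes on 73 of 59305 spots. By role there were 19 ligands, 1 enzyme of ligand secretion, 10 receptors, 2 co-receptors, 9 secreted antagonists, 5 members of the destruction complex with beta-catenin, 4 TCF/LEF transcription factors and 3 feedback or target genes.

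Primary cerebral cells were taken from C57BL6/J mouse embryos on embryonic day 18, kept in neurobasal medium with B27, and treated on day 10 in vitro for 24 h. The valproate culture received 1 mM valproate with 0.1% DMSO, the lamotrigine culture 100 µM lamotrigine with 0.1% DMSO, and the control culture 0.1% DMSO, so that the solvent was common to all 3. Both drugs are used against epilepsy and bipolar disorder: valproate inhibits histone deacetylases, and lamotrigine acts on voltage-gated sodium channels. RNA of each treatment was hybridised to 1 single-colour Agilent array, all 3 arrays lay on 1 slide, and per the labels the lamotrigine array took no part in the study's own work on histone deacetylase inhibitors. The labels do not say how many embryos a culture held or whether the cultures were prepared separately. With 1 array per treatment there was no replicate check and no test, and treatment cannot be told apart from culture, extraction, labelling or array.

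Wnt proteins are secreted ligands that carry a lipid added by the enzyme Porcn. In the canonical branch a Wnt joins a frizzled receptor to Lrp5 or Lrp6, which stops a complex of Axin, Apc and glycogen synthase kinase 3 from marking beta-catenin (Ctnnb1) for destruction, and beta-catenin then enters the nucleus and works with TCF/LEF factors on target genes. Sfrp proteins and Wif1 bind Wnts outside the cell, Dkk1 blocks Lrp5 and Lrp6, and Axin2 and Nkd1 are induced by the pathway and dampen it. In the developing cerebrum Wnt signals pattern the cortex and hippocampus, hold back or promote differentiation of progenitors, and instruct the vessels of the brain to form a barrier.

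Each level is given as scaled signal, the processed intensity of the probe on an array relative to the 75th percentile of that array, which is set to 100. A difference is the log2 ratio of the scaled signals of 2 arrays, and a positive value means higher on the array named first. A probe was detected if most of its spots were marked well above background. A difference was measured where the gene was detected on both arrays, and was a bound where it was detected on 1 of them. Different genes were read by different probes, so a higher signal of a gene than of another does not mean more RNA, and a sum over a list follows its brightest probes. Precision is limited by the number of arrays. The value after ± is the technical SD of a difference, from 399 probes printed 10 times per array. It rests on the median SD of the detected probes in a range of signal, so single probes can vary more. It was 0.24 on the log2 scale at a scaled signal under 25, 0.11 between 25 and 100, 0.08 between 100 and 400, and 0.06 above 400, and it covers the reading of spots within an array and not variation between cultures.

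On the valproate, DMSO and lamotrigine arrays 52.9%, 49.6% and 51.6% of the spots were detected, the 75th percentile was at a signal of 478, 372 and 388, and no spot was saturated (0 on each array). In the same order 15095, 14506 and 14821 genes were detected. All 10 neuronal and all 8 astrocyte markers were detected on the 3 arrays. So were 4 of 7 microglial, 3 of 7 endothelial and mural and 6 of 7 progenitor markers. The microglial markers Cx3cr1, P2ry12 and C1qa, the endothelial marker Cldn5 and the progenitor marker Eomes were detected on none. In bulk samples fewer cells of a type and less RNA per cell cannot be told apart, which holds for every difference below.

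Of the 53 genes, 42 were detected on all 3 arrays, 7 on none and 4 on some. The 7 undetected genes were the ligands Wnt2, Wnt2b, Wnt3a, Wnt8a and Wnt9b and the antagonists Dkk1 and Dkk4. Wnt10a, Wnt10b and Wnt11 were detected with valproate alone, and Wnt8b with valproate and with lamotrigine. In all, 46 members were detected with valproate, 42 with DMSO and 43 with lamotrigine. Over all 22340 genes the numbers detected were 15095, 14506 and 14821, in the same order of arrays. The valproate array also had the lowest detection floor, a scaled signal of 3.88, against 5.29 with DMSO and 4.63 with lamotrigine.

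Set against DMSO, 3 of the 42 measured members were at least 2-fold higher with valproate (7.14%): the ligand Wnt6, the antagonist Sfrp2 and the transcription factor Lef1. The share of all 14345 genes measured in this comparison was 2.09%. None of the 42 members (0) was 2-fold lower, against 1.42% of all genes. At 1.5-fold, 7 of 42 members were higher (16.7%, against 6.24% of all genes), namely Wnt6, Sfrp2, Lef1, Tcf7, Sfrp4, Wif1 and Fzd10. Sfrp5 was the 1 member at least 1.5-fold lower (2.38%, against 5.95% of all genes). With normexp background correction, an alternative that draws dim probes together, Wnt6 alone stayed at 2-fold, at 1.06, while Sfrp2 lay at 0.88 and Lef1 at 0.66. Of the 1.5-fold members Tcf7 (0.42), Sfrp4 (0.35), Wif1 (0.41) and Sfrp5 (-0.44) then fell short of that threshold, which is 0.58 on the log2 scale, and Sfrp5 did so with spike-in scaling as well (-0.32).

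Fewer members lay 2-fold apart between lamotrigine and DMSO than in either comparison with valproate, and the same held over all genes. The SD over all genes was 0.21 for lamotrigine against DMSO and 0.42 in each comparison with valproate. Lamotrigine against DMSO put 0 of 42 members at 2-fold or more in either direction, where 0.0976% of 14340 genes were higher and 0.0628% lower. At 1.5-fold, Sfrp5 and Sfrp4 were higher with lamotrigine (4.76% of 42 members, against 1.11% of all genes) and 0 were lower, against 0.76% of all genes. With normexp both fell short of 1.5-fold, Sfrp5 at 0.23 and Sfrp4 at 0.33. Valproate against lamotrigine gave 3 of 43 members at least 2-fold higher (6.98%, against 2.06% of 14543 genes), Wnt6, Sfrp2 and Wif1, and 1 at least 2-fold lower (2.33%, against 1.69%), Sfrp5. At 1.5-fold the members higher with valproate than with lamotrigine were Wnt6, Sfrp2, Wif1 and Lef1 (9.30%, against 6.17%), and the members lower were Sfrp5, Tcf7l2 and Wnt5a (6.98%, against 5.84%). In this comparison too Wnt6 alone stayed at 2-fold with normexp, at 1.27, while Sfrp2 lay at 0.93, Wif1 at 0.57 and Sfrp5 at -0.67. Wif1, Lef1 (0.56) and Tcf7l2 (-0.54) were then under 1.5-fold, and with spike-in scaling Tcf7l2 (-0.55) and Wnt5a (-0.51) were.

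The comparisons with DMSO share the DMSO array, so a low or high DMSO value alone would move both. Members for which the valproate array stood apart from both other arrays were therefore counted too. Wnt6 and Sfrp2 were at least 2-fold higher with valproate than on both (4.76% of 42, against 1.41% of 14248 genes), and no member (0) was at least 2-fold lower than both, against 0.976% of genes. At 1.5-fold Lef1 and Wif1 joined them (9.52%, against 4.33%), and Sfrp5 was lower than both (2.38%, against 3.87%).

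The medians of the members lay near those of all genes. The median difference of the measured members was -0.01 for valproate against DMSO (all genes: -0.08), 0.05 for lamotrigine against DMSO (all genes: -0.05) and -0.03 for valproate against lamotrigine (all genes: -0.03). Members above 0 numbered 21 of 42 (50%, against 39.3% of all genes), 23 of 42 (54.8%, against 39.8%) and 18 of 43 (41.9%, against 45.3%). The members ranged from -0.65 to 1.92 in valproate against DMSO, from -0.36 to 0.83 in lamotrigine against DMSO, and from -1.48 to 2.15 in valproate against lamotrigine. The SD over all genes was 0.42, 0.21 and 0.42.

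Signs of small differences depend on the scaling. Scaling on spike-in RNA in place of the 75th percentile adds 0.33 to every difference of valproate against DMSO, 0.18 to lamotrigine against DMSO and 0.15 to valproate against lamotrigine, and moves the medians of all genes to 0.25, 0.13 and 0.12. Differences below are relative to the 75th percentile, and any negative value smaller in size than these shifts turns above 0 with spike-in scaling.

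**Figure D1:**
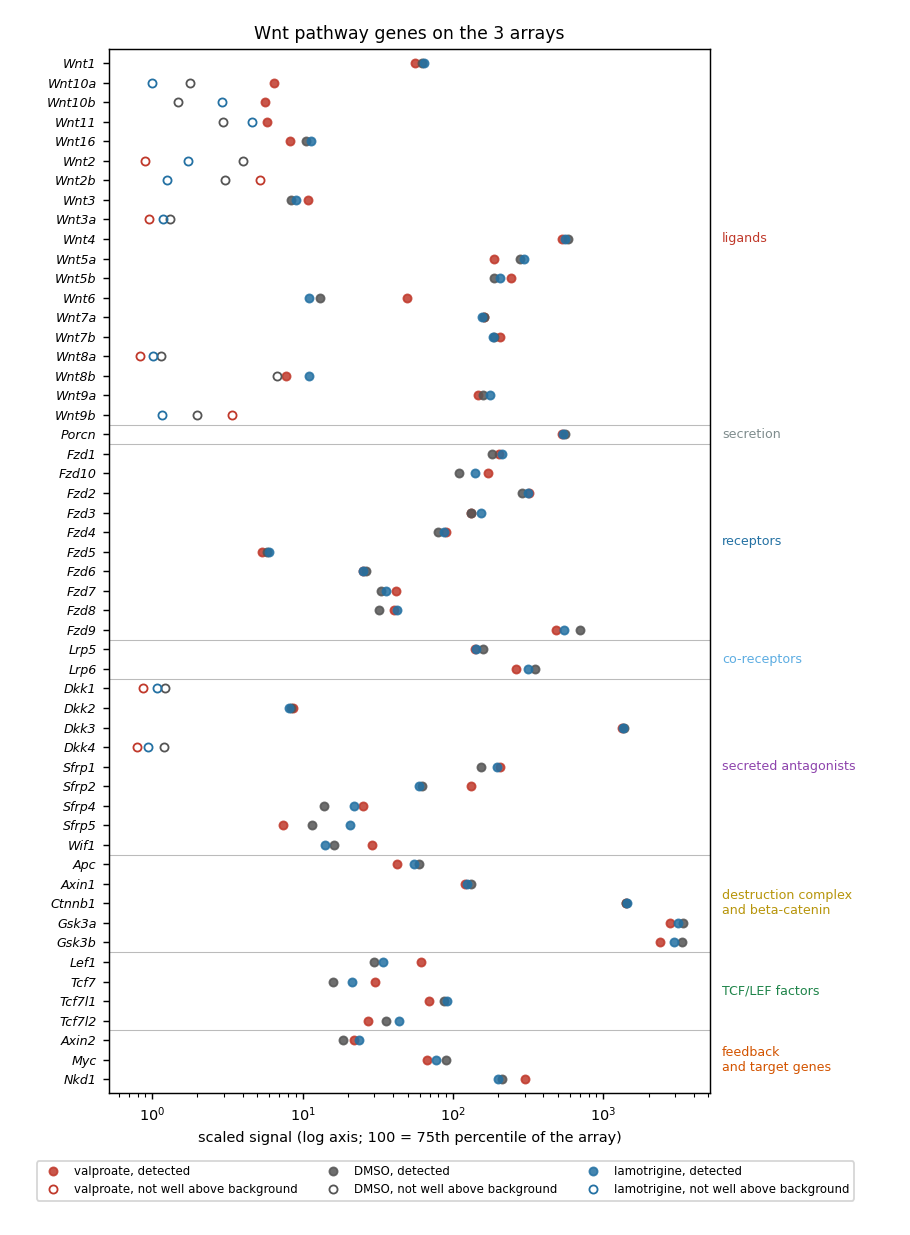
Scaled signal (log axis, 100 is the 75th percentile of an array) of the 53 Wnt pathway genes on the valproate (red), DMSO (grey) and lamotrigine (blue) arrays, 1 array each; filled points were detected and open points were not well above background. Wnt6 on the valproate array, at 49.3, stands to the right of its other points at 13.0 and 11.1, and Sfrp5 has its lowest point with valproate (7.4) and its highest with lamotrigine (20.6).

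These 4 promoter windows are shown because their genes, Wnt6, Sfrp2, Lef1 and Wif1, are the members at least 1.5-fold higher with valproate than on both other arrays. They are the 250 bases upstream of the outermost listed start of each gene in RefSeq on build GRCm38.p6, written 5′ to 3′ on the gene's strand, which is plus for all 4. The Wnt6 window is chr1:74771642-74771891, the Sfrp2 window chr3:83766071-83766320, the Lef1 window chr3:131110047-131110296 and the Wif1 window chr10:121033754-121034003. Capitals mark GC boxes, the core letters read by Sp1-type factors.
Wnt6: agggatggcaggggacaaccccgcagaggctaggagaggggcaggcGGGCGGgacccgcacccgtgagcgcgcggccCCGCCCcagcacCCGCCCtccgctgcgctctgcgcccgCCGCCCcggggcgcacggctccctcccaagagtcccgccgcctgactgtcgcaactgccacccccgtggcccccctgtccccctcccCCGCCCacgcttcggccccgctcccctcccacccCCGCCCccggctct
Sfrp2: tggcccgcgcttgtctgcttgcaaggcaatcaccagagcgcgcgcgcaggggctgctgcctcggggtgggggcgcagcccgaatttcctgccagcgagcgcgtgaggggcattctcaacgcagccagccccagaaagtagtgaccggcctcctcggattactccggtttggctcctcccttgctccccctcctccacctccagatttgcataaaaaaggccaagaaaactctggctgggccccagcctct
Lef1: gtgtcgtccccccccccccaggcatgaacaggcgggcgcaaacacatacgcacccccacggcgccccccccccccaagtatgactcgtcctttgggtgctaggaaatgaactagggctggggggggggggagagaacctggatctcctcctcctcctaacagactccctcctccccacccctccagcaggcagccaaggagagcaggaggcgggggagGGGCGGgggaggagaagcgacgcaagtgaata
Wif1: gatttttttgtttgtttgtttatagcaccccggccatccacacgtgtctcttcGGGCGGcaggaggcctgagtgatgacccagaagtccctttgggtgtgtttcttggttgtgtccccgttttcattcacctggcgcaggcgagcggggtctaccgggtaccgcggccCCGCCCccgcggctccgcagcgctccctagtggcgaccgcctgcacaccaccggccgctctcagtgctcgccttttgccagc

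The GC box was searched as GGGCGG or, on the other strand, CCGCCC, and occurred 6 times in the Wnt6 window, 2 times in that of Wif1, 1 time in that of Lef1 and 0 times in that of Sfrp2. It was present in 33.0% of the windows of 27025 genes, and 1.99% of them held 5 or more. The core letters of a TCF/LEF site, CTTTGA or TCAAAG, were in 0 of the 4 windows, in 5 of the 35 members with a window (14.3%) and in 14.1% of all genes. TATAAA or TTTATA was found in the Wif1 window, as TTTATA near its left end, in 6 of 35 member windows and in 13.0% of all genes. No match of 1 motif overlapped a match of another in the windows shown. Among the 35 members with a window, 27 held a GC box (77.1%). The median GC content was 70.8% in member windows and 52% in all windows. Such matches are descriptions of letters, and a window without a match says nothing about the factor.

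Among the ligands, 10 of 19 were measured in valproate against DMSO, 4 above 0 and 6 below 0, with a median of -0.06 (8 above 0 and a median of 0.26 with spike-in scaling). Wnt6 lay far from the others. Its scaled signal was 49.3 with valproate, 13.0 with DMSO and 11.1 with lamotrigine, so that the valproate array alone was high. The difference was 1.92 ± 0.24 against DMSO, a 3.79-fold higher signal, and 2.15 ± 0.24 against lamotrigine, 4.44-fold. It ranked 31st of 14345 genes in the first comparison and 19th of 14543 in the second. The lamotrigine and DMSO arrays differed by -0.23 ± 0.24, within 1 technical SD. Wnt6 is a canonical ligand best known from ectoderm and from the forming somites. It was read by 1 probe, at chr1:74831461-74831520 on mm9.

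Wnt5a, which mostly acts through the Ror receptors outside the beta-catenin branch, was lower with valproate than on both other arrays. Its scaled signal was 188.2 with valproate, 277.6 with DMSO and 296.6 with lamotrigine. The difference was -0.56 ± 0.08 against DMSO, 1.47-fold, and -0.66 ± 0.08 against lamotrigine, 1.58-fold. Wnt5b, its close relative, was at 245.0 with valproate, 188.8 with DMSO and 206.2 with lamotrigine, and so went the other way by 0.38 ± 0.08 against DMSO.

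Wnt4, known for its part in kidney and gonad formation, was at 534 with valproate, 579 with DMSO and 560 with lamotrigine. Its difference of valproate against DMSO was -0.12 ± 0.06 by this probe and 0.29 ± 0.11 by its dimmer second probe, so its direction was not settled. Wnt7a and Wnt7b, the ligands that induce barrier properties in brain vessels, lay within 0.2 of 0 in each comparison, from -0.06 to 0.04 for Wnt7a and from -0.04 to 0.17 for Wnt7b. The remaining measured ligands were Wnt1 (-0.16), Wnt3 (0.36), Wnt9a (-0.11) and Wnt16 (-0.35) in valproate against DMSO, and spike-in scaling turned Wnt1, Wnt4, Wnt7a and Wnt9a above 0.

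Wnt8b, a ligand of the cortical hem, the signalling centre beside the hippocampus, was detected with valproate at 7.8 and with lamotrigine at 11.1, and was not well above background with DMSO at 6.8. With lamotrigine it was at least 1.64-fold higher than with DMSO, where the bound was set by its own signal on the DMSO array. With normexp this bound shrank from 0.71 to 0.01 on the log2 scale. Wnt10a, at 6.5 with valproate, was at least 1.22-fold higher than the DMSO detection floor, Wnt10b at least 1.07-fold and Wnt11 at least 1.10-fold. All 3 lay close to that floor, a scaled signal of 5.29. Wnt2b and Wnt3a, further ligands of the hem, were not well above background on any of the 3 arrays.

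Several Wnt genes stand next to each other, but in no pair were both members measured. Wnt6 and Wnt10a had probes 19.2 kb apart on chromosome 1 (mm9), and Wnt1 and Wnt10b 22.0 kb apart on chromosome 15. On chromosome 11 the probes of Wnt3 and Wnt9b were 90.2 kb apart and those of Wnt3a and Wnt9a 85.4 kb apart. In each of the 4 pairs 1 member was detected on all 3 arrays. Wnt10a was higher with valproate by a bound of at least 1.22-fold over DMSO and 1.40-fold over lamotrigine. Its valproate signal of 6.5 lay close to the detection floors of those arrays. Within 150 kb of the Wnt6 probe 9 other genes had a probe, of which 3 were measured in valproate against DMSO and 0 differed by 2-fold. These 3 were Stk36 (-0.22 ± 0.11), Ttll4 (0.31 ± 0.24) and Cdk5r2 (-0.45 ± 0.11). Cfap65, a cilium gene, was detected with DMSO at 13.6 and was not well above background with valproate, which put it at least 1.81 lower on the log2 scale. The other 4 genes of the window were not detected on either array.

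**Figure D2:**
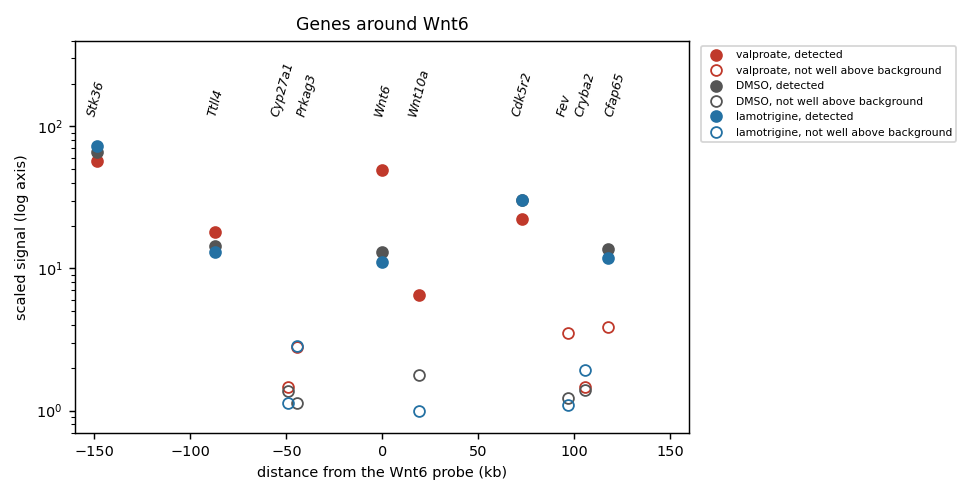
Scaled signal (log axis) of genes with a probe within 150 kb of the Wnt6 probe, by distance from it in kb (mm9), on 1 array per treatment; filled points were detected and open points were not well above background. Wnt6 (49.3) is detected on all 3 arrays with its valproate point above the other 2, Wnt10a (6.5) has a detected point with valproate alone, and Cfap65, 118 kb away, has a valproate point below its other 2.

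Porcn, the acyltransferase that makes Wnts fit for secretion, was at 534 with valproate, 553 with DMSO and 538 with lamotrigine. Its differences lay between -0.05 and -0.01, each within 1 technical SD of 0.06, and spike-in and quantile scaling turned them above 0.

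All 10 frizzled receptors were detected on the 3 arrays. In valproate against DMSO 7 of 10 were above 0, with a median of 0.16 (0.49 with spike-in scaling), and in lamotrigine against DMSO 8 of 10, with a median of 0.13 (0.31 with spike-in scaling). Fzd10, whose transcripts mark the cortical hem, was at 172.2 with valproate, 109.6 with DMSO and 139.4 with lamotrigine. DMSO was thus the lowest of its 3 values, and it was 0.65 ± 0.08 higher with valproate (1.57-fold) and 0.35 ± 0.08 higher with lamotrigine. Fzd9, a receptor found in the hippocampus, was at 482.6, 700.7 and 544.3 in the same order. Here DMSO was the highest, and the differences were -0.54 ± 0.06 and -0.36 ± 0.06.

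Fzd2 was at 321.2 with valproate, 287.8 with DMSO and 315.0 with lamotrigine, and its second probe gave -0.14 ± 0.24 where the first gave 0.16 ± 0.08. For Fzd8 the differences were 0.33 with valproate and 0.39 with lamotrigine, and for Fzd7 they were 0.33 and 0.11. The 5 other receptors lay between -0.11 and 0.19 with valproate and between -0.06 and 0.23 with lamotrigine. Among them is Fzd4, the receptor of brain and retinal vessels, at 0.19 and 0.13.

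The co-receptors were slightly lower with both drugs than with DMSO, with medians of -0.30 and -0.15, which became 0.03 each with spike-in scaling. Lrp6 was at 263.9 with valproate, 351.6 with DMSO and 318.0 with lamotrigine, a difference of -0.41 ± 0.08 and -0.14 ± 0.08, and its dimmer second probe gave -0.08 ± 0.24 and 0.30 ± 0.24. Lrp5 was at 139.6, 158.7 and 141.8, a difference of -0.19 ± 0.08 and -0.16 ± 0.08.

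Among the secreted antagonists, Sfrp2, Sfrp4 and Wif1 were at least 1.5-fold higher with valproate than with DMSO, where the share of all genes was 6.24%. Sfrp5 was at least 1.5-fold lower, where that share was 5.95%. With normexp Sfrp4, Wif1 and Sfrp5 fell short of 1.5-fold. Of 9 antagonists 7 were measured, 5 of them above 0 in valproate against DMSO, with a median of 0.43, and 3 of 7 above 0 in lamotrigine against DMSO, with a median of -0.02 (6 of 7 and 0.16 with spike-in scaling). Sfrp2, a Wnt-binding protein of neural progenitors and mesenchyme, was at 132.6 with valproate, 62.2 with DMSO and 59.8 with lamotrigine. The valproate array alone was high, by 1.09 ± 0.11 against DMSO (2.13-fold) and 1.15 ± 0.11 against lamotrigine (2.22-fold). Sfrp2 was read by 1 probe, at chr3:83577864-83577923 on mm9.

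Wif1, which binds Wnts through its own domain, was at 28.8 with valproate, 16.3 with DMSO and 14.2 with lamotrigine. It too was high with valproate alone, by 0.82 ± 0.24 against DMSO (1.77-fold) and 1.02 ± 0.24 against lamotrigine (2.03-fold).

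Sfrp4 and Sfrp5 had other patterns. Sfrp4 was at 25.2 with valproate, 13.8 with DMSO and 22.1 with lamotrigine, so that both drugs were above DMSO, by 0.87 ± 0.24 (1.83-fold) and 0.68 ± 0.24 (1.60-fold), and differed from each other by 0.19 ± 0.24. Sfrp5 was at 7.4 with valproate, 11.6 with DMSO and 20.6 with lamotrigine. The drugs lay on opposite sides of DMSO, valproate by -0.65 ± 0.24 and lamotrigine by 0.83 ± 0.24, which left them 1.48 ± 0.24 apart on the log2 scale (2.78-fold). The lamotrigine difference of Sfrp5 ranked 37th of 14340 genes and that of Sfrp4 84th.

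Sfrp1, which is made by radial glia of the cortex, was at 206.7 with valproate, 152.9 with DMSO and 195.2 with lamotrigine, 0.43 ± 0.08 and 0.35 ± 0.08 above DMSO. Dkk3, a dickkopf that does not block Lrp5 or Lrp6 as Dkk1 does, was at 1339 with valproate, 1381 with DMSO and 1362 with lamotrigine. Its differences lay between -0.04 and -0.02, within 1 technical SD of 0.06, and turned above 0 with spike-in scaling and, against DMSO, with quantile scaling. Dkk2 gave 0.06 ± 0.24 and -0.03 ± 0.24.

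**Figure D3:**
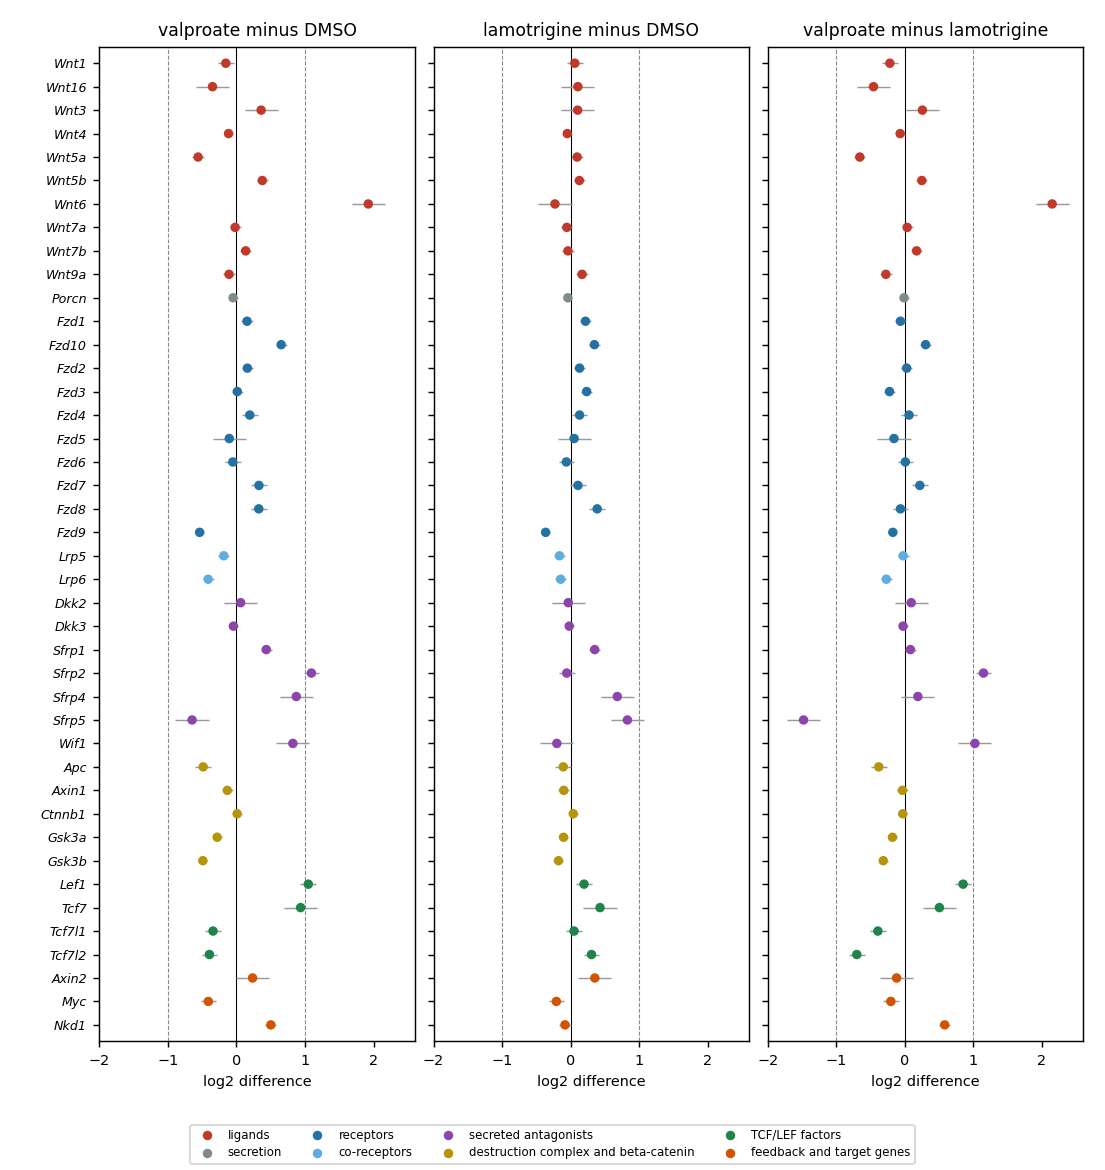
Log2 difference of scaled signal for the 42 members measured in valproate against DMSO, in valproate minus DMSO, lamotrigine minus DMSO and valproate minus lamotrigine, coloured by role; horizontal bars are 1 technical SD of a difference and dashed lines mark 2-fold. Wnt6 (1.92), Sfrp2 (1.09) and Lef1 (1.05) lie past the upper dashed line in the first panel, 0 members pass either dashed line in the second, and Sfrp5 (-1.48) lies past the lower line in the third.

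The levels of cell type markers also differed between the arrays. In valproate against DMSO 39.3% of all genes were above 0, so most genes were not, and the counts below 0 given here stand beside that share. Summed over its 8 genes, the astrocyte list was at 20774 with valproate, 40874 with DMSO and 40178 with lamotrigine. This sum followed its brightest gene, Aldoc, at 10073, 25995 and 25605 in the same order. In valproate against DMSO 7 of 8 genes were below 0, with a median of -0.50. The water channel Aqp4 lay farthest from 0, at -1.62, and Gfap was the 1 gene above 0, at 0.06. The 10 neuronal genes summed to 25096, 33730 and 29688, with 7 of 10 below 0, and the 6 genes of fibroblasts and meninges to 6317, 8352 and 7422, with 6 of 6 below 0. The 7 progenitor genes summed to 12724, 14519 and 15352, with 4 of 6 measured genes below 0, and 2 of 6 with spike-in scaling. Mki67 (0.52) and Nes (0.31) were the 2 above 0. The oligodendrocyte lineage summed to 4155, 4630 and 4124, within which Gpr17, a gene of differentiating precursors, differed by -3.75 with valproate. In this list 6 of 9 measured genes were below 0 and 3 above, among the latter the myelin gene Mbp at 0.60. Microglial genes summed to 1610, 1461 and 1595, with 2 of 4 below 0. Endothelial and mural genes summed to 882, 776 and 951, most of it from Kdr, with 3 of 4 below 0. Flt1, a receptor of vascular growth factors, was detected with valproate alone, at 27.3, at least 5.15-fold higher than with DMSO. With spike-in scaling 7 of 8 astrocyte, 5 of 10 neuronal and 3 of 6 fibroblast and meningeal genes were below 0 in valproate against DMSO.

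The 6 genes of choroid plexus and ependyma summed to 2559 with valproate, 3474 with DMSO and 4707 with lamotrigine, a sum carried by Ttr, Foxj1 and Folr1, which had the order of Sfrp5. Ttr differed by only -0.08 ± 0.06 in valproate against DMSO and turned above 0 with spike-in scaling. Kcnj13 and Clic6 were higher with valproate than with DMSO, and Ccdc153 was lower with lamotrigine than with DMSO. In valproate against DMSO 4 of 6 were below 0, and 3 of 6 with spike-in scaling. In lamotrigine against DMSO 5 of 6 were above 0 with a median of 0.49, and in valproate against lamotrigine 6 of 6 were below 0 with a median of -0.87. The part of these cell types in the Wnt pathway differences was not tested.

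The genes of the destruction complex and beta-catenin ranged from -0.49 to 0.01 in valproate against DMSO, with none at 1.5-fold. In valproate against DMSO 4 of the 5 genes of the destruction complex and beta-catenin were below 0, with a median of -0.28, and with spike-in scaling 2 of 5 were, with a median of 0.05. Gsk3b, a kinase of the complex, was at 2388 with valproate, 3356 with DMSO and 2969 with lamotrigine. Its difference was -0.49 ± 0.06 with valproate and -0.18 ± 0.06 with lamotrigine, and its other 2 probes gave -0.16 ± 0.06 and -0.33 ± 0.08 with valproate. Gsk3a, its close relative, was at 2765, 3362 and 3130, a difference of -0.28 ± 0.06 and -0.10 ± 0.06 that turned above 0 with spike-in scaling.

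Apc, the scaffold of the complex, gave -0.49 ± 0.11 with valproate by its first probe and -0.51 ± 0.11 by its second, and -0.11 and -0.18 with lamotrigine. Axin1, which nucleates the complex, gave -0.13 ± 0.08 and -0.10 ± 0.08, and both turned above 0 with spike-in scaling. Beta-catenin itself (Ctnnb1) was at 1418 with valproate, 1409 with DMSO and 1447 with lamotrigine, a difference of 0.01 ± 0.06 and 0.04 ± 0.06, both within 1 technical SD. The pathway acts on the stability of the beta-catenin protein, which these arrays do not measure.

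The 4 TCF/LEF factors parted with valproate, Lef1 and Tcf7 above 0 and Tcf7l1 and Tcf7l2 below 0, but with spike-in scaling Tcf7l1 (-0.01) and Tcf7l2 (-0.07) lay within 1 technical SD of 0. Lef1 was at 61.7 with valproate, 29.9 with DMSO and 34.2 with lamotrigine. The valproate array was high, by 1.05 ± 0.11 against DMSO (2.07-fold) and by 0.85 ± 0.11 against lamotrigine (1.80-fold), and the lamotrigine value lay 0.20 ± 0.11 above DMSO. The second Lef1 probe, whose sequence is split over 18162 bases of the gene on mm9, was at 18.8, 9.5 and 11.5 and gave 0.99 ± 0.24 against DMSO, just under 2-fold.

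Tcf7 was at 30.5 with valproate, 15.9 with DMSO and 21.4 with lamotrigine, in the order of Lef1, 0.94 ± 0.24 (1.91-fold) and 0.43 ± 0.24 above DMSO. Its other probe was not well above background on any array. Lef1 and Tcf7 are the factors most often linked with activation of target genes, and both are themselves targets of the pathway.

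Tcf7l1, which more often acts as a repressor, was at 69.3 with valproate, 87.8 with DMSO and 90.9 with lamotrigine, -0.34 ± 0.11 and 0.05 ± 0.11 from DMSO. Tcf7l2, a factor of postmitotic thalamic neurons and of the oligodendrocyte lineage, was at 27.1, 35.6 and 44.0. Valproate was the lowest and lamotrigine the highest, -0.39 ± 0.11 and 0.30 ± 0.11 from DMSO and 0.70 ± 0.11 apart from each other (1.62-fold). All 3 Tcf7l2 probes were below 0 in valproate against DMSO, at -0.39, -0.52 and -0.09, whereas lamotrigine against DMSO gave 0.30, -0.07 and 0.16.

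Of the feedback and target genes, Nkd1, an inhibitor that binds dishevelled, was at 300.6 with valproate, 212.4 with DMSO and 200.7 with lamotrigine. It was 0.50 ± 0.08 above DMSO and 0.58 ± 0.08 above lamotrigine, and its dimmer second probe gave 0.93 ± 0.24 and 0.54 ± 0.24. Axin2, the most widely used readout of the canonical branch, was at 22.0 with valproate, 18.7 with DMSO and 23.9 with lamotrigine. Valproate lay 0.23 ± 0.24 above DMSO, within 1 technical SD, and lamotrigine 0.35 ± 0.24. By this probe valproate differed from lamotrigine by less than 1 technical SD. The dimmer second Axin2 probe was detected with valproate alone, at 6.7. It was not well above background with DMSO at 4.6 or with lamotrigine at 3.9. Myc, a target gene with many other inputs, was at 67.3, 89.4 and 77.4, a difference of -0.41 ± 0.11 and -0.21 ± 0.11. The 3 genes therefore did not share a direction with valproate.

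**Figure D4:**
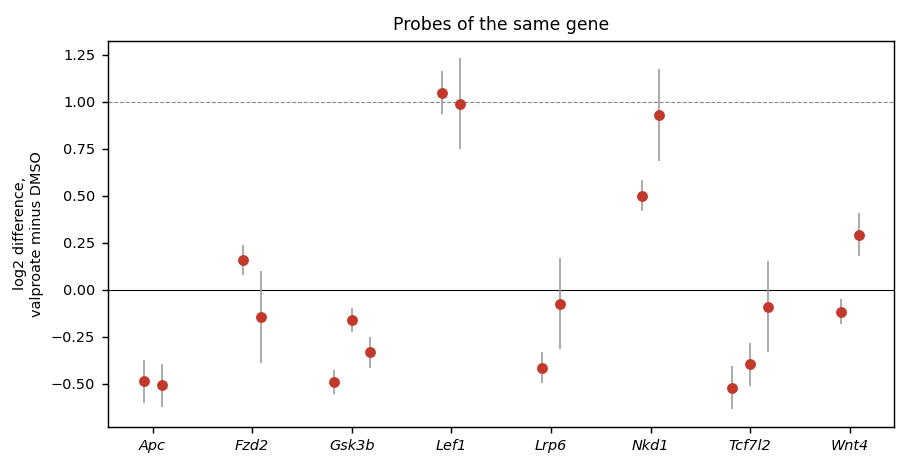
Log2 difference, valproate minus DMSO, for each probe of the 8 members with several probes detected on both arrays, the brighter probe to the left; bars are 1 technical SD and the dashed line marks 2-fold. Both Lef1 probes lie near the dashed line (1.05 and 0.99), and the probes of Fzd2 and Wnt4 lie on opposite sides of 0.

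Of the 53 members 15 had several probes and 38 had 1. For 8 members several probes were detected with valproate and with DMSO, and in 6 of the 8 all of them had the same sign. The exceptions were Fzd2 and Wnt4. No difference of opposite sign exceeded 0.5 on either side. Wnt6, Sfrp2, Sfrp4, Sfrp5, Wif1, Fzd10 and Wnt5a rested on 1 detected probe each, as did Tcf7.

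Other genes of the pathway were read from 8 lists with 97 genes, of which 95 were on the array and 82 were measured in valproate against DMSO. Of the 82, 1 was at least 2-fold higher with valproate and 0 were 2-fold lower, where the shares of all genes were 2.09% and 1.42%. At 1.5-fold 7 were higher and 3 lower, where the shares of all genes were 6.24% and 5.95%. Their median was -0.05, and 32 of the 82 were above 0, a share close to the 39.3% of all genes.

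The R-spondin Rspo1, a secreted protein that enhances Wnt signalling by removing the ligases Rnf43 and Znrf3 from the surface, was the gene past 2-fold. It was at 152.0 with valproate, 42.9 with DMSO and 56.3 with lamotrigine, 1.83 ± 0.11 above DMSO and 1.43 ± 0.11 above lamotrigine. Rnf43 was also higher with valproate, at 15.7, 8.3 and 9.4, by 0.91 ± 0.24. Over its list of R-spondins and receptors 4 of 7 measured genes were above 0, with a median of 0.06 (7 of 7 and 0.39 with spike-in scaling).

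Among further antagonists 5 of 7 were above 0, with a median of 0.19 (6 of 7 and 0.52 with spike-in scaling). Frzb, a relative of the Sfrp proteins, was at 28.4 with valproate, 15.9 with DMSO and 10.7 with lamotrigine. The drugs lay on opposite sides of DMSO, by 0.83 ± 0.24 and -0.57 ± 0.24. Dkkl1, a relative of the dickkopfs, was 0.79 ± 0.24 above DMSO with valproate, and Kremen1, a receptor for dickkopfs, 0.71 ± 0.08.

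The list of ligand release and modifying enzymes held a difference in each direction, with a median of -0.01 (0.32 with spike-in scaling). Ndp, a ligand of Fzd4 that is no Wnt, was at 91.2 with valproate, 179.2 with DMSO and 163.3 with lamotrigine, -0.97 ± 0.08 from DMSO. Gpc3, a glypican of the cell surface, was 0.73 ± 0.08 above DMSO.

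In the cytoplasm and nucleus most listed genes were slightly below 0 with valproate. Of the dishevelled proteins and cytoplasmic regulators 14 of 19 were below 0 (median -0.15), with Dvl3, a dishevelled, at 462.1 with valproate, 898.7 with DMSO and 690.5 with lamotrigine. Its differences were -0.96 ± 0.06 and -0.38 ± 0.06. Of the nuclear cofactors 9 of 12 were below 0 (median -0.12), and Bcl9, which ties beta-catenin to its coactivators, differed by -0.68 ± 0.08. Of cadherins and junction partners of beta-catenin 5 of 5 were below 0 (median -0.27). With spike-in scaling 4 of 19, 3 of 12 and 1 of 5 were below 0, and with quantile normalization 12 of 19, 6 of 12 and 4 of 5, so these directions depend on the scaling.

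Further target genes leaned the other way, with 9 of 13 above 0, against 39.3% of all genes, and a median of 0.12. Neurod1 (0.005 ± 0.24) and Tiam1 (0.012 ± 0.11), counted above 0, lay within 1 technical SD of 0. So did Cd44 (-0.02 ± 0.08), counted below 0. With spike-in scaling 12 of 13 were above 0, and with quantile normalization 7 of 13 were. Sp5, a transcription factor induced by Wnt signals, was at 52.5 with valproate, 28.3 with DMSO and 31.8 with lamotrigine, 0.89 ± 0.11 above DMSO. The cyclin Ccnd2 differed by 0.51 ± 0.06. The 12 measured receptors and polarity proteins of the non-canonical branch had a median of -0.07 (0.26 with spike-in scaling), within which Ror2, a receptor of Wnt5a, differed by 0.52 ± 0.11 and Prickle2, a polarity protein, by -0.58 ± 0.24.

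**Figure D5:**
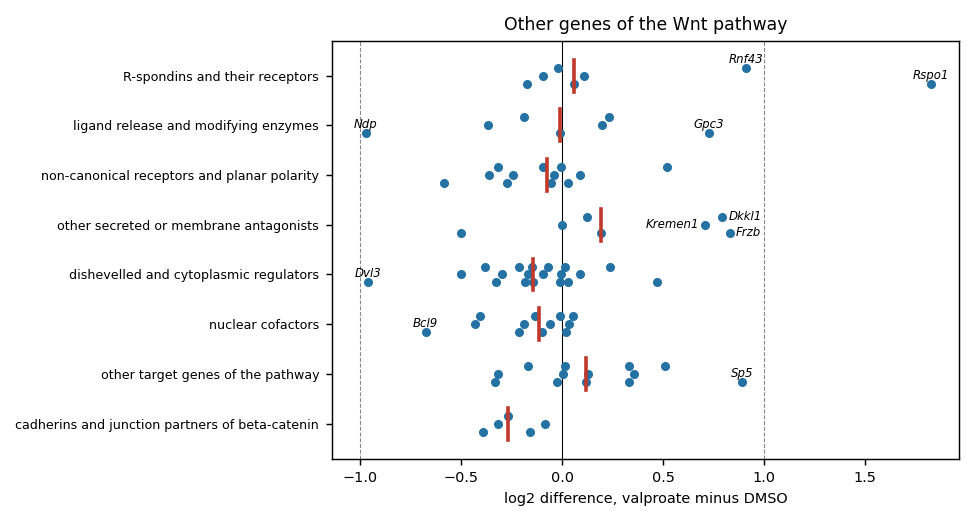
Log2 difference, valproate minus DMSO, of the 82 other measured genes of the Wnt pathway in 8 lists; each point is 1 gene on 1 array per treatment, red bars are list medians and dashed lines mark 2-fold, and genes at least 1.5-fold apart are named. Rspo1 (1.83) is the point past a dashed line.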

How the data were processed

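Expression was measured in 3 RNA samples on 3 arrays, 1 per treatment. Per the file headers, spot intensity was read with Feature Extraction 10.7.1.1, whose processed signal is background-subtracted and not normalized between arrays, and probes are annotated on mm9. A deposited table of the authors holds normalized intensity values, with sorted columns equal to within 0.107%. Its 3 columns of presence calls were not used, and the software behind it is not given in the sources used here.

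From the deposited processed signal, log2 levels were computed relative to the 75th percentile of each array's non-control spots. Outlier spots were left out and spots of a probe averaged. Of the 55681 probes, 27325 were joined to genes by accession, 3523 by symbol and 551 by older symbol in the RefSeq table, and 24282 stayed without a gene. Of several probes of a gene the one brightest on average stands for it. Where 1 array of a comparison lacked detection, it was set to its detection floor (3.88, 5.29 and 4.63 on the valproate, DMSO and lamotrigine arrays), or its own signal was kept if that was higher. Counts of genes apart use measured differences only.

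Members are named with their values in all 3 arrays if they were at least 1.5-fold apart in a comparison or among the 2 with the highest DMSO level of their role. Of each other list up to 4 genes farthest from 0 in valproate against DMSO are named, and other single values were chosen after they were seen. Gpr124 and Aes were not matched on the array. The members and lists were chosen with earlier results of these data known. The 12 alternatives were quantile normalization, median centring over detected probes, spike-in scaling (6 of 10 spike-in probes with signal over 100), normexp (limma 3.58.1 in R 4.3.3, offset 50), the authors' table, no detection filter, a filter on all 3 arrays, averaged probes, the second probe, outlier spots kept, and thresholds of 1.5-fold and 3-fold. Python 3.11.15 with numpy 2.4.6 and pandas 2.3.3 was used, and the computation was tested on simulated data.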

Additional observations from a re-analysis of the deposited data

How the results depend on the processing

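The counts of members at least 2-fold apart stayed at the same number, or within 1.5 times of it, under quantile normalization, median centring, the values of the authors' own table, a filter on all 3 arrays, averaged probes, the second probe (which put Lef1 at 0.99) and outlier spots kept. Averaged probes and the second probe could not change Wnt6, Sfrp2, Wif1 or Sfrp5, which had 1 probe each. The filter on all 3 arrays could not remove any of the 2-fold members, which were detected on all 3. Spike-in scaling, which adds a constant to each comparison, gave 6 members for valproate against DMSO, 1 for lamotrigine against DMSO (Sfrp5) and 4 for valproate against both arrays, and medians of 0.32, 0.23 and 0.12 for valproate against DMSO, lamotrigine against DMSO and valproate against lamotrigine. Background correction with normexp, whose offset draws dim probes together, left 1 member, Wnt6, for valproate against DMSO, against lamotrigine and against both. Sfrp2 then fell to 0.88 and Lef1 to 0.66 against DMSO, and Wif1 to 0.57 and Sfrp5 to -0.67 against lamotrigine. Wnt6 was at 1.06 against DMSO and 1.27 against lamotrigine. With no detection filter the counts were 6, 2 and 7 for the 3 comparisons, and the added members (Wnt10a, Wnt10b, Wnt2, Wnt2b and Wnt9b) were not well above background on at least 1 of the arrays compared. A threshold of 1.5-fold gave 8, 2 and 7 members and 5 for valproate against both, and 3-fold gave 1 (Wnt6) for valproate against DMSO, against lamotrigine and against both. Of the values of single named members under the alternatives 585 moved by less than the technical SD and 126 by more, and 0 of those at 2-fold changed sign. With 1 array per treatment no replicate could be left out. No paired analysis was possible because each treatment has 1 array. Signal over background limits Sfrp5, Wnt8b, Wnt10a, Wnt10b and Wnt11, which lay close to the detection floors.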
